A study of Rattus norvegicus with 16 samples.

Results

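The 40 genes described here encode the subunits of voltage-gated sodium and calcium channels. They were taken from the 31038 genes of the deposited tables by symbol alone, as every gene named Scn with a number and a or b, Cacna1, Cacna2d1 to Cacna2d4, Cacnb1 to Cacnb4 or Cacng1 to Cacng8. They comprise 10 pore-forming sodium channel alpha subunits, 4 sodium channel beta subunits, 10 pore-forming calcium channel alpha1 subunits, 4 alpha2delta subunits, 4 cytoplasmic calcium channel beta subunits and 8 gamma subunits, which include the transmembrane regulators of AMPA receptors.

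A voltage-gated channel opens when the membrane depolarizes. The alpha subunit forms the pore, and the smaller subunits set how much channel reaches the membrane and how fast it opens and closes. Sodium channels drive the action potential at the nodes of Ranvier of the myelinated axon, whereas calcium channels couple depolarization to calcium entry, transmitter release and contraction. Scn7a departs from this scheme: its protein, Nax, lacks features of the voltage sensor and is known as a sodium-level sensor in glia and in other cells that do not fire.

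RNA was sequenced from Schwann cells purified from the rat sciatic nerve and from undissociated whole sciatic nerve, each from uncrushed nerves and from nerves crushed on postnatal day 18 and left for 3, 5 or 7 days. This gave 8 groups of 2 libraries. Postnatal day 18 was given as the age for all groups, the uncrushed included. If uncrushed nerves were taken at that age, crushed nerves came from rats 3, 5 or 7 days older. Crush and age can then not be told apart. Genotype, strain and sex were not stated, and no allele or agent other than the crush is named. Schwann cells were immunopanned, with depletion of CD45 and Thy1 positive cells and then selection with O4, from at least 10 pooled nerves per sample. For crushed nerves, tissue distal to the crush was taken, and the uncrushed nerves came without a sham operation. Nothing states that the 2 libraries of a group came from separate experiments beyond their separate samples, so the p-values measure the spread between these libraries.

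The libraries held 10555067 to 27562637 summed counts. Levels are given as FPKM, fragments scaled to transcript length and library total, and changes are log2 fold changes of edgeR on the counts, called at an adjusted p under 0.05. Sox10, the lineage factor of Schwann cells, was at 59.1 to 95.5 FPKM in the Schwann cell libraries and at 21.5 to 52.1 in whole nerve. For a list of 8 Schwann cell markers, the summed FPKM without crush was 9030 to 9220 in the purified cells and 18100 to 21600 in whole nerve. In that comparison 5 of the 8 were called higher in the purified cells and 3 lower. After crush, 8, 8 and 6 were higher in the purified cells on days 3, 5 and 7, and none was lower. The summed FPKM of 6 macrophage markers was at most 12.5 in Schwann cells, against 119 to 132 in uncrushed nerve and 525 to 548 in nerve on day 3. That of 5 fibroblast markers was 323 to 575 in uncrushed and 241 to 376 in crushed Schwann cells, against 3960 to 4670 in uncrushed nerve. The summed FPKM of 10 neuronal markers was 28.2 to 45.7 in uncrushed and 141 to 305 in crushed Schwann cells. Nefl and Nefm, the light and medium neurofilament genes, carried most of that sum. Stmn2, a gene of growing axons, was at 1.2 and 1.19 FPKM in uncrushed and 0.06 to 0.38 in crushed Schwann cells.

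Between libraries of whole nerve, the scale mattered. With counts divided by library totals, as FPKM are, the median of all tested genes was 0.41 (log2) higher on day 3 than in uncrushed nerve, and 0.39 and 0.42 higher on days 5 and 7, whereas TMM scaling in edgeR set it to 0.00, -0.01 and 0.02. Whole-nerve changes are therefore given relative to the median gene, and members whose call rested on this scaling are named below. In Schwann cells the same medians were -0.05, 0.08 and 0.10 by library total.

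Promoters were available in RefSeq for 27 of the 40 genes, in 30 windows of the assembly GRCr8. The 250 bases before the start are shown for 5 genes that changed on every day in Schwann cells, to show the sequence just upstream of members described in full below. Scn7a (chr3:71846285-71846534) and Scn9a (chr3:71701378-71701627), neighbours on the minus strand of chromosome 3, and Cacna1c (chr4:154051749-154051998, minus strand) fell, while Cacna1a (chr19:40650469-40650718, minus strand) and Cacnb3 (chr7:131666301-131666550, plus strand) rose. Capitals mark 4 motifs searched on both strands: ACAAAG (core of SOX factors), TGANTCA (AP-1), GCGTGGG (EGR factors) and GGGCGG (GC box).
Scn7a: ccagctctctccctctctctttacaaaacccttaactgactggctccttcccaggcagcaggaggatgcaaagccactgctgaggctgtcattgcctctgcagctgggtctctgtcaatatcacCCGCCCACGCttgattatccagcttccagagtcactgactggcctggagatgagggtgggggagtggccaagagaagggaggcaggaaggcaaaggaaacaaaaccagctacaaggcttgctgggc
Scn9a: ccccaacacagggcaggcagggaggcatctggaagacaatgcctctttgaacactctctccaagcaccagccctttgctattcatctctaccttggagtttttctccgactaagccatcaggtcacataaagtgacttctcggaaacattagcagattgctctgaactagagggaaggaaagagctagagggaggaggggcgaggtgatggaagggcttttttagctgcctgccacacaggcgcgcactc
Cacna1c: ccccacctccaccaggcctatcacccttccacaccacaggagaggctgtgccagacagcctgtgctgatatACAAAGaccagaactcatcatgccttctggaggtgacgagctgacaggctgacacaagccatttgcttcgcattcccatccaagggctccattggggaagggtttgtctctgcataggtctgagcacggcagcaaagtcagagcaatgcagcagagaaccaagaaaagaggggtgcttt
Cacna1a: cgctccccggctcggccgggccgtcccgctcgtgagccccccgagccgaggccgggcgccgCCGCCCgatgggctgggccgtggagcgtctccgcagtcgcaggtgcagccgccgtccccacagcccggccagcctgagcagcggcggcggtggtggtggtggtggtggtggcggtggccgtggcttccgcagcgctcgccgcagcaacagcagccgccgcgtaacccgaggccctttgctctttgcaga
Cacnb3: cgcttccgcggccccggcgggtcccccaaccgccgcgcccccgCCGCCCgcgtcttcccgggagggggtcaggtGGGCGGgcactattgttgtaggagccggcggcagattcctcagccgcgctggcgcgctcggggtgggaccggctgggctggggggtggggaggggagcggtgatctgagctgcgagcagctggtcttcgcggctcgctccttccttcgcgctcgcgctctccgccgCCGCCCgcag
The capital run in Scn7a is a GC box that overlaps an EGR motif, both read on the opposite strand. Scn9a held none of the 4 motifs in this window. The GC box was present in 15 of the 30 member windows (50%) and in 30.5% of 33469 promoters of that length. Cacna2d1 entered these 15 with several windows that in part share sequence, so the 15 are not separate genes. The EGR motif was present in 2 member windows (Scn7a and Cacnb2) and in 3.68% of all promoters, the SOX core in 2 (Cacna1c and Cacna1e) and in 16.3%, and the AP-1 motif in 1 (Scn3a) and in 6.34%. The median GC content was 63% in the member windows and 51.2% over all promoters. A match of letters is a description of the sequence and not a site of binding.

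After crush, 21 of the 40 genes passed the filter on low counts in Schwann cells and 19 did not. On day 3, 5 were higher, 11 were lower and 5 were not called, in a comparison in which 52.5% of all tested genes were called, 26.9% higher and 25.7% lower. On day 5 the numbers were 5 higher, 8 lower and 8 not called, with 54.6% of all genes called, 29.0% higher and 25.6% lower. Day 7 gave 5 higher, 8 lower and 8 not called, with 46.9% of all genes called, 25.0% higher and 21.9% lower. The median log2 fold change of the tested members was -0.53, -0.75 and -0.19 on days 3, 5 and 7, against 0.00, 0.06 and 0.06 over all tested genes. Scn7a, Scn9a, Scn2a, Scn3b, Cacna1c, Cacnb4 and Cacng4 were lower on all 3 days. Cacna1a and Cacnb3 were higher on all 3 days.

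In whole nerve 24 members were tested and 16 were not. Of these 24, 4 were higher and 11 lower on day 3, beside 45.6% of all genes called (23.1% higher, 22.5% lower). On day 5, 4 were higher and 9 lower, beside 38.4% of all genes (18.9% higher, 19.5% lower). The same numbers, 4 higher and 9 lower, were found on day 7, beside 31.3% of all genes (15.4% higher, 15.9% lower). With libraries scaled by their totals, an alternative chosen after seeing the data, the numbers on days 3, 5 and 7 were 6 higher and 7 lower, 6 and 6, and 6 and 7. The members higher on all 3 days were Scn3b, Cacna1a and Cacna1b, and those lower on all 3 days were Scn7a, Cacna1c, Cacna1s, Cacna2d1, Cacnb3, Cacnb4 and Cacng4.

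**Figure D1:**
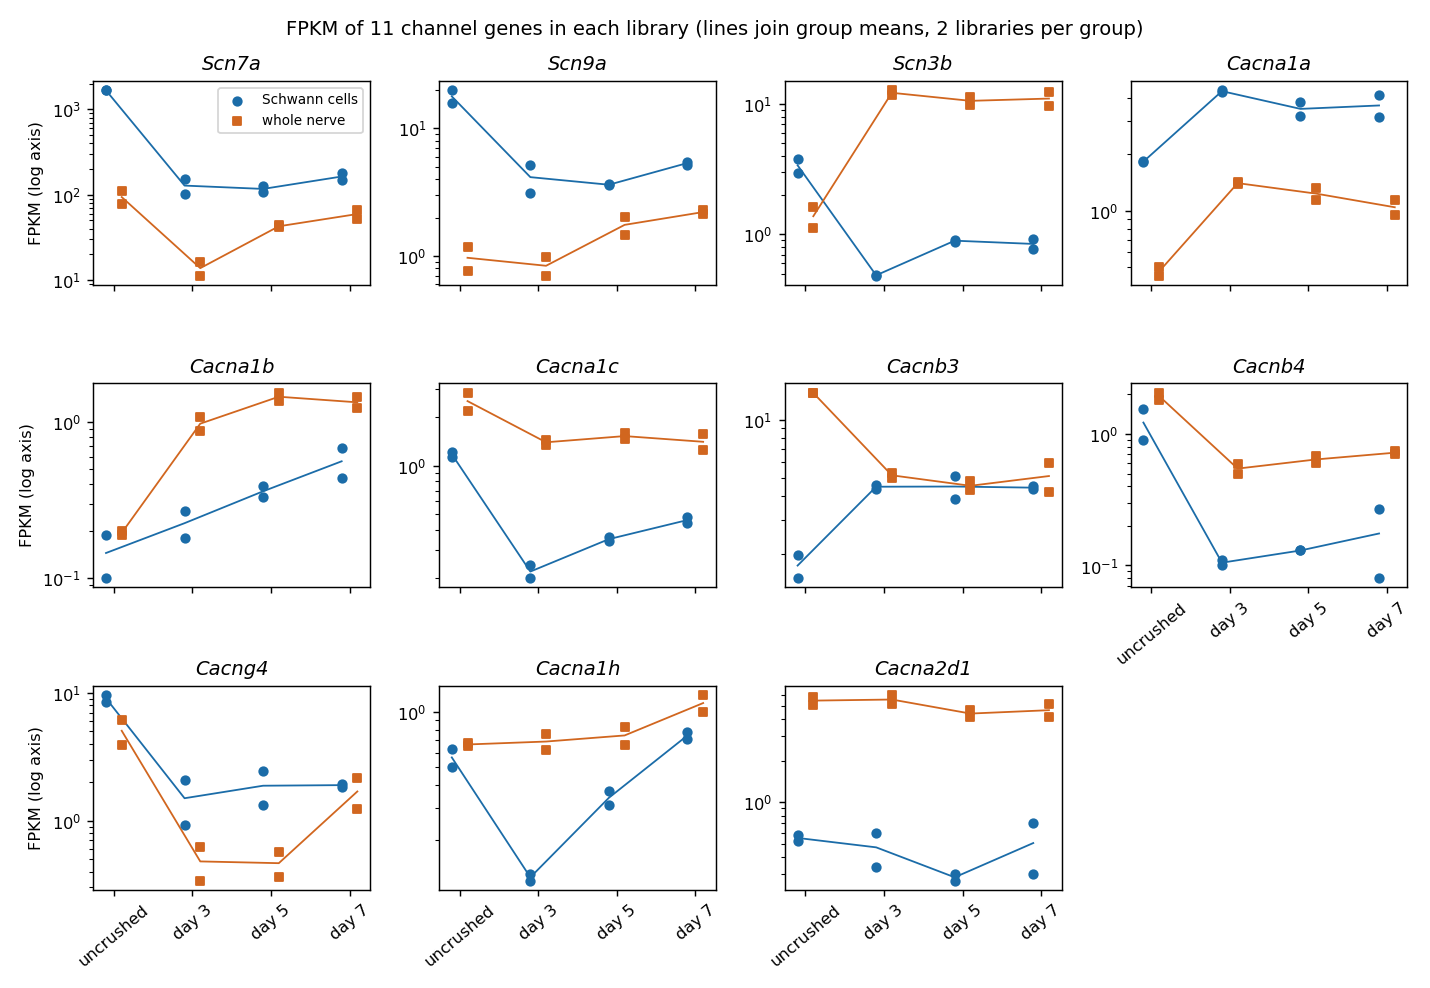
FPKM on a log axis of 11 channel genes in uncrushed nerve and on days 3, 5 and 7, with Schwann cells as blue circles, whole nerve as orange squares, 1 point per library and lines through the means of 2 libraries. Scn3b fell in Schwann cells and rose in whole nerve, Cacnb3 did the reverse, and Cacna1a rose in both.

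Among sodium channel alpha subunits, Scn7a dominated. Its level was 1673 and 1667 FPKM in the 2 libraries of uncrushed Schwann cells, 154 and 102 on day 3, 125 and 109 on day 5, and 178 and 149 on day 7. The uncrushed libraries stood far above all 6 crushed ones, without overlap. Scn7a ranked 20 and 23 among all genes by FPKM in the uncrushed libraries, held 0.957% and 0.978% of all counts there, and made up 97.2% and 97.4% of the summed FPKM of the 40 genes. It fell by 3.65 on the log2 scale on day 3 (standard error 0.198, adjusted p = 4.49e-07), a 12.5-fold lower level. The fall was 14.3-fold on day 5 (log2 fold change -3.84, standard error 0.199, adjusted p = 4.86e-07) and 10.4-fold on day 7 (log2 fold change -3.37, standard error 0.195, adjusted p = 1.40e-06). Between days 3 and 7 no change was called (log2 fold change 0.27, standard error 0.178, adjusted p = 0.321).

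In whole nerve Scn7a was lower than in Schwann cells and took another course. It was at 77.9 and 110 FPKM in uncrushed nerve, 11.2 and 16.4 on day 3, 41.6 and 43.8 on day 5, and 66.7 and 52.2 on day 7. All 6 crushed libraries stood below both uncrushed ones, and those of day 3 were the lowest. The log2 fold change was -3.19 on day 3 (standard error 0.209, adjusted p = 9.13e-07), -1.54 on day 5 (standard error 0.196, adjusted p = 1.57e-04) and -1.07 on day 7 (standard error 0.194, adjusted p = 0.00194). From day 3 to day 7 it rose 4.36-fold (log2 fold change 2.12, standard error 0.202, adjusted p = 6.89e-05). In a bulk library, fewer cells that carry an RNA and less RNA per cell cannot be told apart.

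Scn9a, which lies next to Scn7a and encodes Nav1.7, a channel of sensory and sympathetic neurons, followed Scn7a in Schwann cells at a lower level. It was at 19.8 and 15.7 FPKM in uncrushed Schwann cells, 5.2 and 3.09 on day 3, 3.65 and 3.58 on day 5, and 5.2 and 5.49 on day 7. All crushed libraries lay below both uncrushed ones. The fall was 4.15-fold on day 3 (log2 fold change -2.05, standard error 0.202, adjusted p = 2.33e-05), 4.96-fold on day 5 (-2.31, standard error 0.205, adjusted p = 1.25e-05) and 3.40-fold on day 7 (-1.77, standard error 0.200, adjusted p = 8.87e-05). Whole nerve held 0.76 and 1.18 FPKM when uncrushed, 0.7 and 0.98 on day 3, 1.47 and 2.04 on day 5, and 2.29 and 2.13 on day 7. There, day 3 was not called (log2 fold change -0.60, adjusted p = 0.0787), nor day 5 (0.47, adjusted p = 0.163), and day 7 was higher (0.80, standard error 0.247, adjusted p = 0.0326). This last call was lost when nerve uncrushed library 1 (0.49), nerve day 7 library 1 (0.76) or nerve day 7 library 2 (0.87) was left out. From day 3 to day 7 in whole nerve Scn9a rose 2.63-fold (log2 fold change 1.40, standard error 0.243, adjusted p = 0.00271).

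Scn1a, Scn2a and Scn3a, which encode the central nervous channels Nav1.1, Nav1.2 and Nav1.3, were detected at low levels. Their estimated counts, and those of Scn9a, were not whole numbers in 11, 13, 15 and 15 of 16 libraries, within a tolerance of 0.03, as occurs when reads are shared among near-identical genes, so these estimates are uncertain. Scn7a was whole in 16 of 16. Scn2a was at 0.59 and 0.78 FPKM in uncrushed Schwann cells, 0.26 and 0.29 on day 3, 0.23 and 0.28 on day 5, and 0.29 and 0.19 on day 7. Every crushed library was below both uncrushed ones, and the log2 fold changes were -1.27, -1.46 and -1.55 on days 3, 5 and 7 (adjusted p = 0.00786, 0.00405 and 0.00387). The call on day 3 was lost without Schwann cell uncrushed library 2 (-1.05). Scn2a was not called in whole nerve on any day, where its libraries ranged from 0.22 to 0.39 FPKM.

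Scn3a was the more abundant of these in whole nerve. It stood at 1.48 and 1.18 FPKM in uncrushed nerve, 1.4 and 1.31 on day 3, 1.09 and 1.25 on day 5, and 1.36 and 1.59 on day 7. These values overlapped, and the calls of lower on day 3 (log2 fold change -0.46) and day 5 (-0.57) were lost with libraries scaled by their totals (-0.06 and -0.17). The day 3 call was also lost without nerve uncrushed library 1 (-0.29), nerve day 3 library 1 (-0.48) or nerve day 3 library 2 (-0.43), and the day 5 call without nerve uncrushed library 1 (-0.40) or nerve day 5 library 1 (-0.48). In Schwann cells Scn3a was at 0.43 and 0.2 FPKM when uncrushed, 0.19 and 0.18 on day 3, 0.16 and 0.16 on day 5, and 0.05 and 0.13 on day 7. On day 7 it was 4.01-fold lower (standard error of the log2 fold change 0.550, adjusted p = 0.0139), a call lost without Schwann cell uncrushed library 1 (-1.42) or Schwann cell day 7 library 1 (-1.44). Its log2 fold change was -2.69 without Schwann cell day 7 library 2. Scn1a did not pass 0.23 FPKM in any library and was not called after crush in either tissue.

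Scn8a, Scn4a, Scn10a and Scn11a were scarce. Scn8a, which encodes Nav1.6, the main channel of mature nodes of Ranvier, held 5 to 30 counts per library in whole nerve (0.08 to 0.29 FPKM) and 0 to 4 in Schwann cells. It was not called after crush in whole nerve. Scn4a, the skeletal muscle channel, had 3 to 17 counts in whole nerve and 0 to 11 in Schwann cells. Scn10a and Scn11a, channels of nociceptive neurons, reached at most 3 and 4 counts. Scn4a was not called after crush in whole nerve. Scn10a and Scn11a were not tested, and at this depth the absence of these RNAs cannot be shown.

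The sodium channel beta subunits, which are single-pass membrane proteins with an immunoglobulin domain and also act in cell adhesion, split between the tissues. Scn3b was at 3.83 and 2.96 FPKM in uncrushed Schwann cells, 0.48 and 0.49 on day 3, 0.88 and 0.91 on day 5, and 0.77 and 0.92 on day 7. It was at 1.13 and 1.63 FPKM in uncrushed nerve, 11.7 and 12.8 on day 3, 11.4 and 9.85 on day 5, and 9.72 and 12.4 on day 7. In neither tissue did a crushed library overlap an uncrushed one, and the directions were opposite.

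In Schwann cells Scn3b fell 6.71-fold on day 3 (log2 fold change -2.75, standard error 0.235, adjusted p = 8.96e-06), 3.85-fold on day 5 (-1.95, standard error 0.224, adjusted p = 7.22e-05) and 4.13-fold on day 7 (-2.05, standard error 0.229, adjusted p = 8.09e-05). In whole nerve it rose 6.84-fold on day 3 (2.77, standard error 0.188, adjusted p = 1.18e-06), 5.94-fold on day 5 (2.57, standard error 0.189, adjusted p = 2.88e-06) and 6.17-fold on day 7 (2.63, standard error 0.189, adjusted p = 3.97e-06). The 6 macrophage markers, which CD45 depletion takes out of the Schwann cells, were all higher on day 3 in whole nerve (6 of 6), with the sums given above, and their part in this result was not tested.

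Scn2b, a beta subunit that is disulfide-linked to the alpha subunit, was a gene of the whole nerve. Schwann cell libraries held 0 to 7 counts, and whole nerve was at 3.23 and 1.72 FPKM when uncrushed, 1.7 and 1.83 on day 3, 2.79 and 2.33 on day 5, and 2.01 and 1.82 on day 7. The uncrushed nerve libraries differed and overlapped the crushed ones. Calls of lower on day 3 (log2 fold change -0.93) and day 7 (-0.72) were lost without nerve uncrushed library 1 (-0.45 and -0.25), without either library of the crushed group, and with libraries scaled by their totals (-0.52 and -0.31). Scn4b, another beta subunit, had 0 to 16 counts per library and was not tested after crush.

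Of the calcium channel alpha1 subunits, Cacna1a was the most abundant in Schwann cells. It encodes the P/Q-type channel of presynaptic terminals, and it was at 1.85 and 1.81 FPKM in uncrushed Schwann cells, 4.3 and 4.39 on day 3, 3.2 and 3.79 on day 5, and 4.12 and 3.17 on day 7. In whole nerve it was at 0.5 and 0.45 FPKM when uncrushed, 1.42 and 1.39 on day 3, 1.33 and 1.14 on day 5, and 0.95 and 1.14 on day 7. Crushed and uncrushed libraries did not overlap in either tissue. The rise on days 3, 5 and 7 was 2.53-, 1.96- and 1.90-fold in Schwann cells (adjusted p = 3.28e-05, 2.86e-04 and 5.11e-04) and 2.24-, 2.04- and 1.77-fold in whole nerve (adjusted p = 4.92e-04, 0.00154 and 0.00759).

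Cacna1b, the N-type channel of presynaptic terminals, rose from low levels. Schwann cells held 0.1 and 0.19 FPKM when uncrushed, 0.18 and 0.27 on day 3, 0.33 and 0.39 on day 5, and 0.68 and 0.44 on day 7. Day 3 overlapped the uncrushed libraries and was not called (adjusted p = 0.166), whereas day 5 (log2 fold change 1.37, standard error 0.443, adjusted p = 0.0247) and day 7 (2.02, standard error 0.438, adjusted p = 0.00435) were higher. The day 5 call was lost without Schwann cell uncrushed library 1 (0.86), Schwann cell day 5 library 1 (1.49) or Schwann cell day 5 library 2 (1.27). Without Schwann cell uncrushed library 2 the values on days 5 and 7 were 2.10 and 2.74. In whole nerve it was at 0.2 and 0.19 FPKM when uncrushed, 0.88 and 1.07 on day 3, 1.54 and 1.36 on day 5, and 1.45 and 1.22 on day 7. The rise there was 3.75-, 5.54- and 5.14-fold (adjusted p = 4.22e-05, 8.43e-06 and 1.62e-05). In the same nerve libraries Nefl was at 11.2 and 11 FPKM when uncrushed, 11.7 and 36.8 on day 3, 80.7 and 102 on day 5, and 83 and 38.3 on day 7. Of the 9 neuronal markers tested there, 1 was higher and 3 lower on day 3, 3 higher and 4 lower on day 5, and 2 higher and 2 lower on day 7, and their part in the rise of Cacna1b was not tested.

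Cacna1c encodes the L-type channel of cardiac and smooth muscle and of many neurons and glia, and it fell in both tissues. Schwann cells were at 1.14 and 1.22 FPKM when uncrushed, 0.2 and 0.24 on day 3, 0.34 and 0.36 on day 5, and 0.48 and 0.44 on day 7. No crushed library reached the uncrushed level, and the values were lowest on day 3. The fall was 4.74-fold on day 3 (log2 fold change -2.24, standard error 0.181, adjusted p = 6.17e-06), 3.40-fold on day 5 (-1.77, standard error 0.177, adjusted p = 3.01e-05) and 2.59-fold on day 7 (-1.37, standard error 0.175, adjusted p = 1.88e-04). From day 3 to day 7 it rose by 0.87 on the log2 scale (adjusted p = 0.00927), a call lost without Schwann cell day 3 library 1 (0.77) or Schwann cell day 7 library 1 (0.85). Whole nerve held 2.2 and 2.85 FPKM when uncrushed, 1.35 and 1.45 on day 3, 1.47 and 1.59 on day 5, and 1.57 and 1.25 on day 7, a fall of 2.36-, 2.16- and 2.36-fold (adjusted p = 1.04e-04, 3.04e-04 and 2.04e-04). The summed FPKM of 5 mural cell markers was 38.3 to 51.2 in uncrushed and 8.59 to 18.4 in crushed Schwann cells, where 2 of the 5, Pdgfrb and Cspg4, were lower on day 3 and none higher. In whole nerve that sum was 243 to 299 when uncrushed and 282 to 364 after crush, with 3 of 5 lower on day 3, and its part in the fall of Cacna1c was not tested. Dcp1b, a decapping gene whose record overlaps Cacna1c in GRCr8, was at 1.78 to 3.08 FPKM in all libraries.

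Other alpha1 subunits were called on some days only. Cacna1h, the T-type channel Cav3.2, was at 0.63 and 0.5 FPKM in uncrushed Schwann cells, 0.12 and 0.13 on day 3, 0.37 and 0.31 on day 5, and 0.71 and 0.78 on day 7. Day 3 was 4.31-fold lower (log2 fold change -2.11, standard error 0.293, adjusted p = 2.38e-04), day 7 was not called (0.37, adjusted p = 0.273), and from day 3 to day 7 it rose 5.57-fold (2.48, standard error 0.290, adjusted p = 3.89e-04). On day 5 it was lower by a call (-0.75, adjusted p = 0.0393) that was lost when any of the 4 libraries was left out. Whole nerve was at 0.65 and 0.68 FPKM when uncrushed, 0.62 and 0.76 on day 3, 0.66 and 0.83 on day 5, and 1 and 1.24 on day 7, with no day called.

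Cacna1d, the L-type channel Cav1.3 of pacemaking and endocrine cells, was called in opposite directions on different days in Schwann cells. It was at 1.23 and 1.11 FPKM when uncrushed, 0.72 and 0.89 on day 3, 1.07 and 1.1 on day 5, and 1.61 and 1.7 on day 7. It was lower on day 3 (log2 fold change -0.51, adjusted p = 0.0233), a call lost without Schwann cell uncrushed library 1 (-0.46) or Schwann cell day 3 library 1 (-0.39), and higher on day 7 (0.44, adjusted p = 0.0426), a call lost when any of the 4 libraries was left out. By DESeq2 both calls were lost (-0.54 and 0.39). The direct comparison of day 7 with day 3 was higher (0.95, standard error 0.157, adjusted p = 0.00245). In whole nerve Cacna1d was at 0.95 and 1.01 FPKM when uncrushed, 0.6 and 0.56 on day 3, 0.8 and 0.93 on day 5, and 0.82 and 1.39 on day 7. It was lower on day 3 (-1.18, standard error 0.244, adjusted p = 0.00275), and days 5 and 7 were not called.

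Cacna1g, the T-type channel Cav3.1, was scarce in Schwann cells, at 5 and 4 counts when uncrushed, 26 and 34 on day 3, 5 and 17 on day 5, and 5 and 9 on day 7. The rise on day 3 (log2 fold change 2.11, standard error 0.735, adjusted p = 0.0351) lost its call when any of the 4 libraries was left out. Whole nerve was at 0.4 and 0.51 FPKM when uncrushed, 0.39 and 0.43 on day 3, 0.5 and 0.55 on day 5, and 0.32 and 0.37 on day 7. The call of lower on day 7 (-0.79, adjusted p = 0.0456) was lost when any of the 4 libraries was left out and with libraries scaled by their totals (-0.38).

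Cacna1s, the voltage sensor of skeletal muscle, was read in 20 and 38 counts in uncrushed nerve, 2 and 3 on day 3, 1 and 2 on day 5, and 10 and 0 on day 7, and in at most 2 counts in a Schwann cell library. It was called lower on all 3 days (adjusted p = 0.00468, 0.00530 and 0.0312), and no fold is given on days 3 and 5, where no library passed 3 counts. On day 7 (log2 fold change -3.05) the call was lost without nerve uncrushed library 2 (-2.15) or nerve day 7 library 2 (-2.06) and the value was -3.64 without nerve uncrushed library 1, and nerve day 7 library 2 alone, at 0 counts, allows no fold. The summed FPKM of 10 skeletal muscle markers was 36.9 to 735 in uncrushed nerve, 12.5 to 24.2 on day 3, 12.6 to 39.2 on day 5 and 6.81 to 89.4 on day 7. Of 9 tested, 7 were lower on day 3, and their part in this result was not tested. Acta1, the actin of skeletal muscle, was at 8.09 and 141 FPKM in the uncrushed nerve libraries, so library 2 held more muscle RNA than library 1. Cacna1e, Cacna1f and Cacna1i, channels of neurons and of the retina, were at 6 counts or fewer in every library and were not tested.

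**Figure D2:**
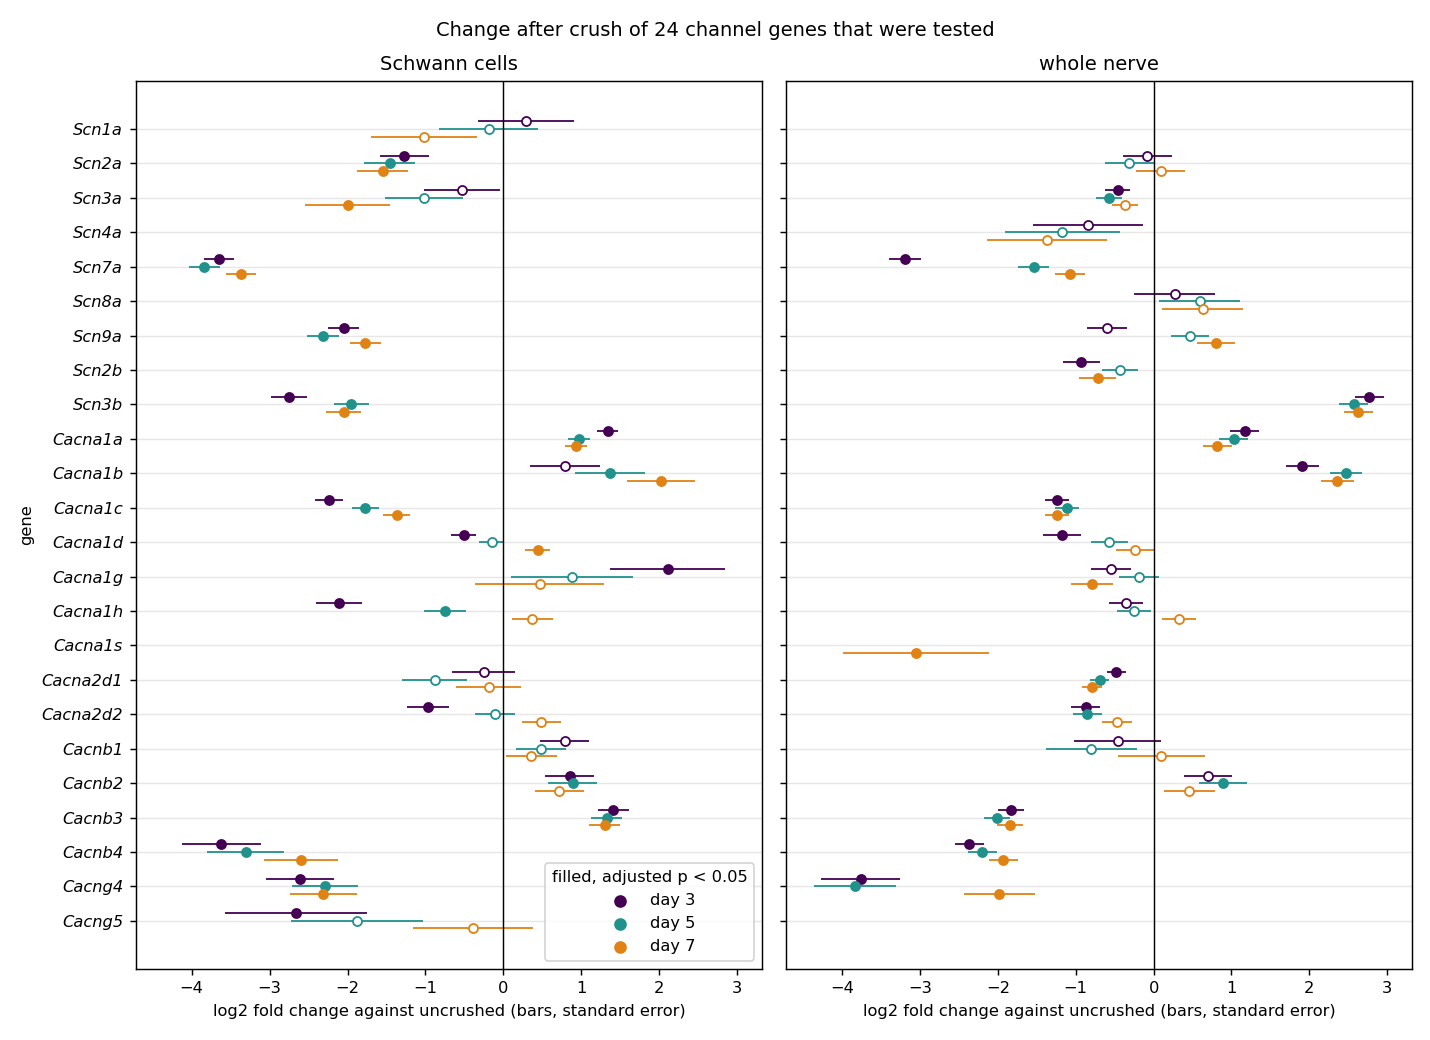
Log2 fold change against uncrushed, with standard errors, of 24 genes that were tested in at least 1 tissue and had no group at 3 counts or fewer in the comparison, in Schwann cells (left) and whole nerve (right), with filled points where the adjusted p was under 0.05. Scn7a on days 3 and 5 and Cacnb4 on day 3 were the lowest in Schwann cells, and Cacng4 on days 3 and 5 in whole nerve.

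The alpha2delta subunits are extracellular proteins that carry calcium channels to the surface, and Cacna2d1 is the known binding partner of gabapentin. Cacna2d1 was at 0.27 to 0.71 FPKM in all Schwann cell libraries, with no day called. Whole nerve held 5.1 and 5.8 FPKM when uncrushed, 5.11 and 5.99 on day 3, 4.63 and 4.15 on day 5, and 4.12 and 5.17 on day 7. FPKM overlapped on days 3 and 7. The log2 fold changes of -0.48, -0.69 and -0.79 (adjusted p = 0.00781, 0.00131 and 7.78e-04) were called, and with libraries scaled by their totals days 3 and 5 lost the call (-0.07 and -0.29). The day 3 call was also lost without nerve uncrushed library 2 (-0.37) or nerve day 3 library 1 (-0.40).

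Cacna2d2 was at 1.31 and 1.5 FPKM in uncrushed Schwann cells, 0.65 and 0.72 on day 3, 1.61 and 1.02 on day 5, and 1.82 and 2.26 on day 7. It was lower on day 3 (log2 fold change -0.97, standard error 0.268, adjusted p = 0.0129), a call lost without Schwann cell uncrushed library 2 (-0.86) or Schwann cell day 3 library 1 (-0.91), and it rose 2.74-fold from day 3 to day 7 (1.45, standard error 0.263, adjusted p = 0.00393). In whole nerve it was at 2.09 and 2.22 FPKM when uncrushed, 1.8 and 1.34 on day 3, 1.54 and 1.58 on day 5, and 2.22 and 1.9 on day 7. It was lower on day 3 (-0.87, adjusted p = 0.00339) and day 5 (-0.85, adjusted p = 0.00534), calls lost with libraries scaled by their totals (-0.47 and -0.45). Cacna2d3 and Cacna2d4 were at 9 counts or fewer everywhere and were not tested.

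The cytoplasmic beta subunits, which bind the alpha1 subunit and promote its surface delivery, diverged. Cacnb3 was at 1.99 and 1.5 FPKM in uncrushed Schwann cells, 4.59 and 4.37 on day 3, 3.87 and 5.11 on day 5, and 4.36 and 4.5 on day 7. Whole nerve held 13.7 and 13.8 FPKM when uncrushed, 4.98 and 5.29 on day 3, 4.29 and 4.77 on day 5, and 4.22 and 5.96 on day 7. Crushed libraries lay above the uncrushed ones in Schwann cells and below them in whole nerve, and the crushed libraries of both tissues lay between 3.87 and 5.96 FPKM.

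The rise in Schwann cells was 2.66-fold on day 3 (log2 fold change 1.41, standard error 0.198, adjusted p = 2.51e-04), 2.52-fold on day 5 and 2.47-fold on day 7 (adjusted p = 3.89e-04 and 5.99e-04). The fall in whole nerve was 3.56-fold on day 3 (-1.83, standard error 0.165, adjusted p = 9.34e-06), 4.02-fold on day 5 and 3.59-fold on day 7 (adjusted p = 7.50e-06 and 1.83e-05). The record of Cacnb3 overlaps that of the tubulin gene Tuba1c in GRCr8, and the libraries did not keep strand. Tuba1c was at 24.9 to 28.8 FPKM in uncrushed and 57.5 to 118 in crushed Schwann cells, and at 70 to 74.4 FPKM in uncrushed nerve against 66.7 to 193 after crush. Whether reads of Tuba1c entered the counts of Cacnb3 was not tested.

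Cacnb4 fell in both tissues. Schwann cells held 1.54 and 0.9 FPKM when uncrushed, 0.11 and 0.1 on day 3, 0.13 and 0.13 on day 5, and 0.27 and 0.08 on day 7. The fall was 12.3-fold on day 3 (log2 fold change -3.62, standard error 0.504, adjusted p = 2.37e-04), 9.90-fold on day 5 (-3.31, standard error 0.496, adjusted p = 3.94e-04) and 6.07-fold on day 7 (-2.60, standard error 0.474, adjusted p = 0.00160). The day 7 libraries held 37 and 8 counts, and the value was -3.71 without Schwann cell day 7 library 1 and -2.04 without library 2. Whole nerve was at 2.06 and 1.82 FPKM when uncrushed, 0.5 and 0.59 on day 3, 0.68 and 0.6 on day 5, and 0.74 and 0.7 on day 7, without overlap. There the fall was 5.18-, 4.58- and 3.82-fold (adjusted p = 3.44e-06, 8.43e-06 and 2.72e-05).

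Cacnb2 was at 0.5 and 0.62 FPKM in uncrushed Schwann cells, 0.95 and 0.99 on day 3, 0.84 and 1.29 on day 5, and 0.88 and 1.02 on day 7, with all crushed libraries above the uncrushed ones. Its calls of higher on day 3 (log2 fold change 0.85, adjusted p = 0.0426) and day 5 (0.89, adjusted p = 0.0361) were lost in 4 and 3 of the 4 refits that left out a library. Whole nerve was at 0.52 and 0.4 FPKM when uncrushed, 1.13 and 0.88 on day 3, 1.03 and 1.26 on day 5, and 0.68 and 0.95 on day 7, and the call on day 5 (0.89, adjusted p = 0.0447) was lost in 4 of 4 such refits. Cacnb1, the beta subunit of skeletal muscle, was at 0.59 and 0.67 FPKM in uncrushed Schwann cells, 1.11 and 1.03 on day 3, 0.73 and 1.06 on day 5, and 0.9 and 0.77 on day 7, and was not called after crush in either tissue. Its record overlaps that of Rpl19, a ribosomal protein gene at 447 FPKM or more in every library.

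Of the gamma subunits, Cacng4 alone passed 1 FPKM as a group mean. It encodes a TARP, a carrier of AMPA receptors, and it was at 8.52 and 9.66 FPKM in uncrushed Schwann cells, 2.08 and 0.92 on day 3, 2.44 and 1.32 on day 5, and 1.85 and 1.95 on day 7. Whole nerve was at 3.94 and 6.19 FPKM when uncrushed, 0.34 and 0.62 on day 3, 0.57 and 0.36 on day 5, and 1.23 and 2.16 on day 7. The uncrushed libraries were the highest in both tissues. The fall in Schwann cells was 6.11-, 4.90- and 4.95-fold on days 3, 5 and 7 (adjusted p = 7.40e-04, 0.00145 and 0.00190). The log2 fold change on day 3 was -2.61, against -3.26 without Schwann cell day 3 library 1 and -2.08 without library 2. In whole nerve it was 13.5-fold on day 3 (log2 fold change -3.76, standard error 0.509, adjusted p = 1.73e-04), 14.2-fold on day 5 (-3.83, standard error 0.524, adjusted p = 2.55e-04) and 3.93-fold on day 7 (-1.98, standard error 0.457, adjusted p = 0.00798). The day 7 call in whole nerve was lost without nerve uncrushed library 2 (-1.62) or nerve day 7 library 1 (-1.60).

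Cacng5, which lies beside Cacng4, held 13 and 17 counts in uncrushed Schwann cells, 4 and 3 on day 3, 10 and 1 on day 5, and 22 and 6 on day 7. Its call of lower on day 3 (log2 fold change -2.66, adjusted p = 0.0325) was lost when any of the 4 libraries was left out. Cacng1, a subunit of the skeletal muscle channel, had 2 and 9 counts in uncrushed nerve and at most 4 in any other library. Cacng2, Cacng3, Cacng6 and Cacng7 had at most 8 counts, with 0 in every Schwann cell library, and Cacng8 was at 0 in all 16.

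**Figure D3:**
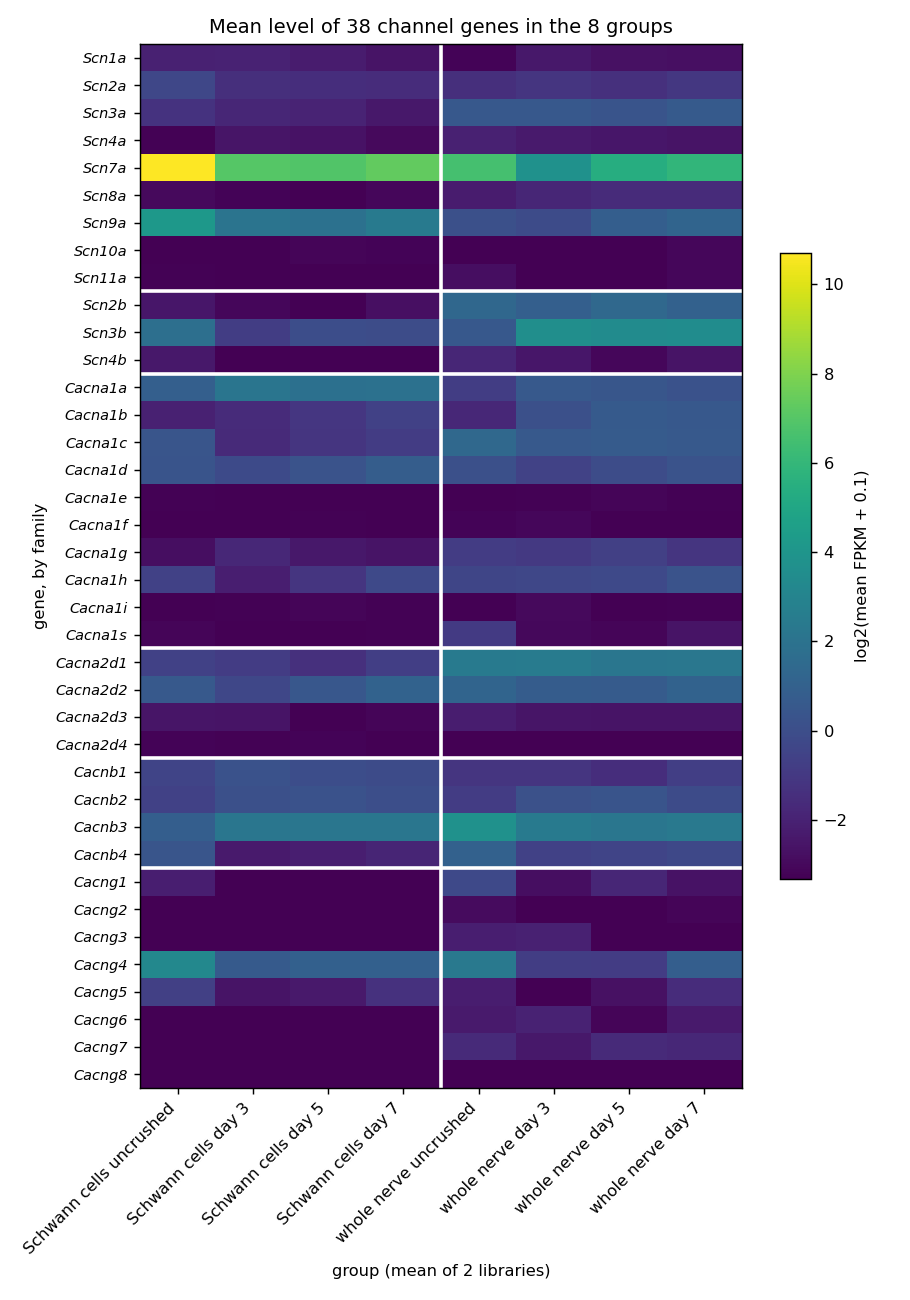
Mean level of 38 of the genes in the 8 groups as log2(mean FPKM + 0.1), each mean over 2 libraries, with white lines between families and between tissues. Scn7a was the highest gene in all 8 groups, with the closest neighbour in nerve on day 3, where its libraries (11.2 and 16.4 FPKM) overlapped those of Scn3b (11.7 and 12.8), and the gamma subunits other than Cacng4 were near 0.

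From day 3 to day 7, 4 members were higher and 1 lower in Schwann cells, beside 21.0% of all genes called (10.2% higher, 10.7% lower). The higher ones were Cacna1c, Cacna1d, Cacna1h and Cacna2d2. In whole nerve 5 were higher and 1 lower, beside 21.2% of all genes (9.85% higher, 11.4% lower). Scn7a and Scn9a were the called members with the lowest adjusted p there. The calls of Cacna1d (log2 fold change 0.94), Cacna1h (0.68) and Cacng4 (1.78) were each lost in 3 or 4 of the 4 refits that left out a library.

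Schwann cells and whole nerve were then compared at each time point to see which members were higher in the purified cells. In uncrushed tissue, 6 members were higher in Schwann cells, 13 were higher in whole nerve, 6 were not called and 15 were not tested, beside 64.4% of all genes called (29.1% and 35.3%). With libraries scaled by their totals the members numbered 6 and 10. Scn9a was 15.0-fold higher in Schwann cells (log2 fold change 3.90, standard error 0.260, adjusted p = 1.25e-08), Scn7a 14.2-fold (3.82, standard error 0.235, adjusted p = 5.61e-09), Cacna1a 3.16-fold (adjusted p = 1.10e-06) and Scn3b 2.03-fold (adjusted p = 3.94e-04). Lower in Schwann cells were Scn2b, 35.8-fold (adjusted p = 4.95e-07), Cacna2d1, 13.8-fold (adjusted p = 9.34e-09), Cacna1g, 12.4-fold (adjusted p = 4.10e-05), and Cacnb3, 9.76-fold (adjusted p = 3.85e-09). The Scn2b value rests on 7 and 2 counts in the Schwann cell libraries, and its log2 fold change of -5.16 became -6.19 without library 1. That of Cacna1g rests on 5 and 4 counts there. Some calls of the uncrushed comparison rested on single libraries. Without Schwann cell uncrushed library 1, those of Scn1a and Scn8a (-1.42) were lost, and without library 2 those of Scn2a (0.79), Scn4a and Cacnb4 (-0.86). Without nerve uncrushed library 1, those of Scn2a (1.00) and Scn8a (-1.59) were lost, and without library 2 those of Scn1a and Scn4a. No fold is given for Scn1a, at 3 counts or fewer in uncrushed nerve, or for Scn4a, at 3 or fewer in uncrushed Schwann cells. Cacna1h lost its call when any of the 4 was left out.

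On day 3, 7 were higher and 11 lower in Schwann cells (57.3% of all genes called, 24.5% higher and 32.8% lower). Day 5 gave 6 and 10 (51.7%, with 23.2% and 28.4%) and day 7 gave 4 and 10 (51.0%, with 22.4% and 28.7%). At each of the 4 time points Scn7a, Scn9a and Cacna1a were higher in Schwann cells. The excess of Scn7a was 9.66-, 2.64- and 2.65-fold on days 3, 5 and 7, and that of Scn9a 5.04-, 1.99- and 2.32-fold. Lower at each time point were Cacna2d1, Scn2b, Scn3a, Scn8a, Cacna1c, Cacna1g, Cacna1h and Cacnb4. The deficit of Cacna2d1 after crush was 12.9-, 17.1- and 10.2-fold (on day 7 a log2 fold change of -3.35, and -3.95 without Schwann cell day 7 library 2), and the calls of Cacna1g on day 3 and of Cacna1h on day 7 were lost in 4 and 3 of 4 refits that left out a library. Scn3b, higher in Schwann cells before crush, was 24.2-, 12.2- and 13.6-fold lower after it (adjusted p = 3.10e-10, 1.57e-09 and 1.58e-09). Cacnb3 did not differ by a call on days 3, 5 and 7 (log2 fold changes -0.15, -0.07 and -0.26, standard errors 0.172, 0.176 and 0.179).

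The difference of the crush effect between Schwann cells and whole nerve was tested in a fit of all 16 libraries, which share their uncrushed groups across days. On day 3, 3 members had a more positive and 5 a more negative change in Schwann cells, 17 were not called and 15 were not tested, beside 26.0% of all genes called (12.3% more positive, 13.7% more negative). On days 5 and 7 the numbers were 2 and 6 (27.5% of all genes, with 12.6% and 14.9%) and 1 and 5 (26.0%, with 11.6% and 14.4%). With libraries scaled by their totals they were 2 and 8, 2 and 9, and 1 and 5 on days 3, 5 and 7. Scn3b differed most, by -5.62, -4.64 and -4.79 on the log2 scale (standard errors 0.283, 0.274 and 0.279, adjusted p = 1.62e-08, 4.71e-08 and 5.43e-08). Cacnb3 differed by 3.14, 3.22 and 3.03 (standard errors 0.258, 0.261 and 0.263, adjusted p = 8.88e-07, 8.08e-07 and 1.75e-06). Scn7a did not differ by a call on day 3 (-0.55, standard error 0.299, adjusted p = 0.200) and did on days 5 and 7 (-2.42 on both, standard error 0.302 on both, adjusted p = 3.98e-05 and 4.45e-05). Scn9a differed on all 3 days (-1.57, -2.91 and -2.69, adjusted p = 0.00429, 2.58e-05 and 5.51e-05). The rise of Cacna1a was not told apart between tissues, with differences of 0.07, -0.18 and -0.01 and standard errors of 0.228, 0.226 and 0.210.

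**Figure D4:**
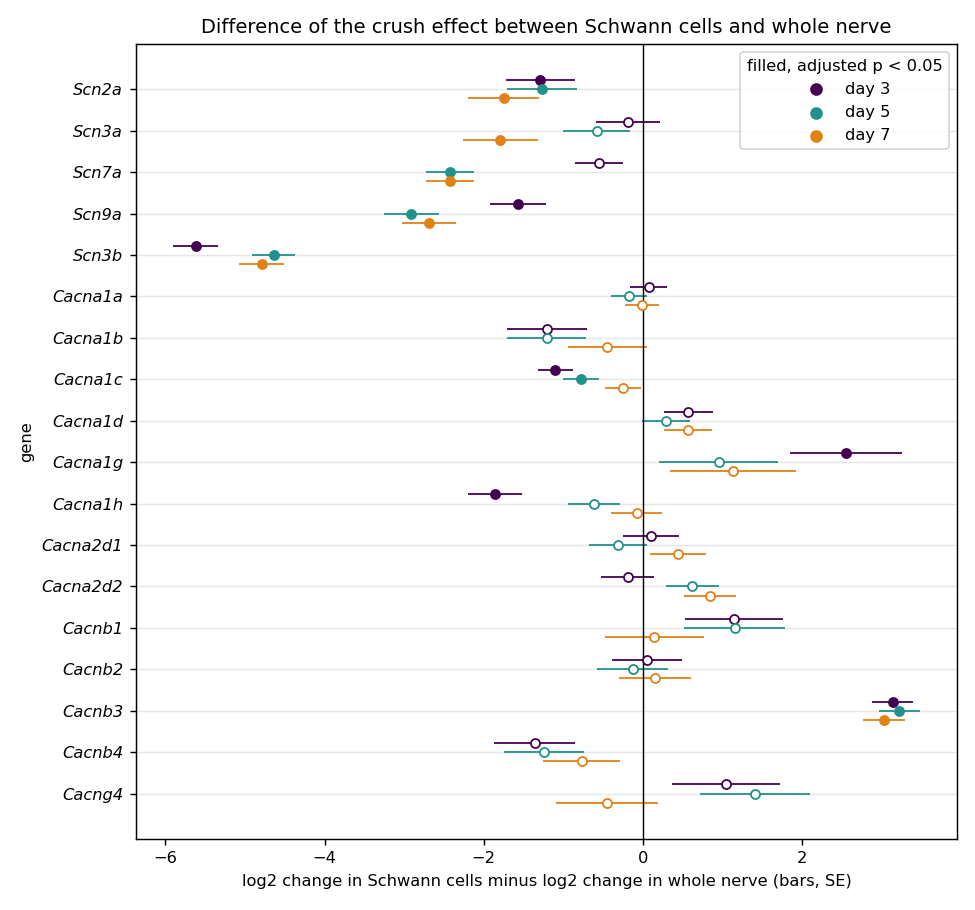
Log2 change in Schwann cells minus log2 change in whole nerve on days 3, 5 and 7, with standard errors, for 18 genes above 3 counts in the groups used, with filled points where the adjusted p was under 0.05. Scn3b lies farthest to the left on every day and Cacnb3 farthest to the right, and the points of Cacna1a lie close to 0 (0.07, -0.18 and -0.01).

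Partners of these channels are given for 7 of the lists made. Beside their counts on day 3 stand the shares of all tested genes, 26.9% higher and 25.7% lower in Schwann cells and 23.1% higher and 22.5% lower in whole nerve, and with 1 to 6 tested genes a list nothing particular to a list is read from its count. Of the FGF homologous factors, which bind the tail of sodium channels, 3 of 3 tested were lower in Schwann cells on day 3 and 1 of 4 was not tested. Fgf14 had the lowest adjusted p of these (2.90e-04), at 71 and 61 counts when uncrushed and 0 and 2 on day 3. In whole nerve 3 of 4 were lower on day 3. Of the channels that release calcium from internal stores, 4 of 5 tested were lower and none higher in Schwann cells on day 3. Ryr3, a ryanodine receptor, was at 4.62 and 4.24 FPKM in uncrushed Schwann cells, 0.09 and 0.06 on day 3, 0.35 and 0.31 on day 5, and 0.94 and 0.8 on day 7 (log2 fold change on day 3 -5.89, standard error 0.195, adjusted p = 4.98e-08).

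Among anchors and ubiquitin ligases of channels, 2 of 5 tested were higher and 3 lower in Schwann cells on day 3. Nedd4l, a ligase known to remove sodium channels from the membrane, went from 12.2 and 11.3 FPKM to 43.5 and 43.7 (log2 fold change 1.95, adjusted p = 1.40e-06), and Ank2, an ankyrin, from 14.9 and 14.3 to 2.61 and 2.18 (-2.56, adjusted p = 3.42e-07). Of 4 RGK proteins, small GTP-binding inhibitors of calcium channels, 1 was higher (Gem, 0.68, adjusted p = 0.0180) and 2 lower (lowest adjusted p, Rrad, -4.05, 7.99e-04). Stac2, an adaptor of L-type channels, was higher (0.92, adjusted p = 0.0259) as the only tested member of 3. Store-operated entry gave 1 higher (Orai3, 0.81, adjusted p = 0.00620) and 1 lower (Orai2, -0.68, adjusted p = 0.00271) of 5, and the Nalcn leak channel complex gave 1 lower of 2 tested (Unc79, -1.38, adjusted p = 0.0140).

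On day 7 in Schwann cells, where 25.0% of all genes were higher and 21.9% lower, 3 of 5 calcium release channels and 1 of 3 FGF homologous factors were lower and none of either was higher. The anchors and ligases were 2 higher and 3 lower of 5, and the RGK proteins 1 higher and 1 lower of 4. Of the Nalcn complex 1 of 2 was higher and none lower, against 1 lower on day 3, and 1 of 5 genes of store-operated entry and the 1 tested Stac adaptor were higher. In whole nerve on day 3, 5 of 6 calcium release channels, 3 of 4 genes of the Nalcn complex, 3 of 5 anchors and ligases and 1 of 5 genes of store-operated entry were lower, and 1 of 5 anchors and ligases, 1 of 3 RGK proteins and 1 of 2 Stac adaptors were higher.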

How the data were processed

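Expected counts and FPKM of 31038 genes were read from 16 deposited tables, 1 per library. The authors made both with RSEM from reads placed on the rat assembly Rnor_6.0 by STAR. The deposited expected counts are not normalized. The deposited FPKM are scaled by the authors to gene length and library total. The cDNA was amplified, carries no molecular identifiers and did not keep strand, so counts are not independent molecules. A deposited count matrix and a module table were not used. The 40 genes and all lists were chosen with earlier results of these data known.

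Counts were rounded to whole numbers, and edgeR 4.0.16 (R 4.3.3) gave quasi-likelihood tests (TMM scaling, filterByExpr, Benjamini-Hochberg adjustment at 0.05). Fits held the 8 Schwann cell libraries (14961 genes), the 8 whole-nerve libraries (15831) or all 16 (16829). An exact permutation test of 2 against 2 libraries cannot go below p = 0.333 and was not used. No fold was given where each library of a group had 3 counts or fewer. The scripts were tested on simulated data. Alternatives were DESeq2 1.42.0, other scalings, filters and libraries, a replicate block, and leaving out each library. Members are named, with values per library where they were called after crush or reached a group mean of 1 FPKM. The counts cover all 40 genes, but results for some genes are not reported here. For each list, the most significant riser and faller on day 3 in Schwann cells are named. Replicates differed beyond sampling noise in all 8 groups. RefSeq records of GRCr8 matched all 40 genes by symbol and gave neighbours, and promoters of 27.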

Additional observations from a re-analysis of the deposited data

Results flagged for a closer look

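In 19 cases, over 9 genes, the change after crush differed between Schwann cells and whole nerve by the test of the difference itself. The values are log2 changes in Schwann cells minus those in whole nerve. At day 3 they were -5.62 for Scn3b, 3.14 for Cacnb3, 2.55 for Cacna1g, -1.86 for Cacna1h, -1.57 for Scn9a, -1.29 for Scn2a and -1.10 for Cacna1c. At day 5 they were -4.64 for Scn3b, 3.22 for Cacnb3, -2.91 for Scn9a, -2.42 for Scn7a, -1.27 for Scn2a and -0.78 for Cacna1c. At day 7 they were -4.79 for Scn3b, 3.03 for Cacnb3, -2.69 for Scn9a, -2.42 for Scn7a, -1.79 for Scn3a and -1.75 for Scn2a.

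Leaving out a library lost the call for Cacna1g at day 3 in 1 of 8 refits, Scn2a at days 3 and 5 in 7 and 6, Cacna1c at day 5 in 4 and Scn3a at day 7 in 2, and moved the value of Scn3a from -1.79 to -2.45 without Schwann cell day 7 library 2. Scn2b also differed at day 5 by the test, but both Schwann cell libraries of day 5 held 0 counts, so no size is given. Groups of 2 libraries were too small for a search for outlying samples.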

How the results depend on the processing

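Of 183 calls on single members, 128 were kept under every alternative run, 55 were lost under at least 1 (21 of them under DESeq2), and in 2062 refits none turned its direction. The number of members called from day 3 to day 7 in Schwann cells was 5, against 8 with no filter on low counts and 9 with all 16 libraries in 1 fit, and 3 to 5 when a library was left out (3 without Schwann cell day 7 library 1). In whole nerve it was 6, against 3 with DESeq2 and 2 to 4 when a library was left out (2 without nerve day 3 library 1 or nerve day 7 library 2, 3 without nerve day 3 library 2). Requiring at least 10 counts in every library, which tests fewer genes, changed the members called between Schwann cells and whole nerve from 19, 18, 16 and 14 (uncrushed, days 3, 5 and 7) to 11, 10, 9 and 9. The difference of the day 5 effect gave 8 members, and 5 to 9 when a library was left out (5 without either Schwann cell day 5 library). The causes of the other changes were not tested. Scaling by library totals, chosen after seeing the data, moved the share of higher calls among all genes in whole nerve from 50.7% to 79.2% at day 3, from 49.2% to 81.2% at day 5 and from 49.3% to 85.8% at day 7, and the fit of all 16 libraries moved the last to 60.8%. Scaling by totals also moved that share from 48.8% to 62.5% from day 3 to day 7 in Schwann cells, from 45.2% to 58.9% between the uncrushed tissues, and from 47.4%, 45.8% and 44.6% to 19.5%, 24.9% and 23.2% for the differences of effect on days 3, 5 and 7, and 16 of the 183 calls were lost under it. No shared deviation by replicate number was seen: deviations of equal numbers correlated at -0.058 to 0.084 over genes. This cannot show whether libraries of equal number were prepared together. With the replicate block, 6 of the 183 calls were lost and 16 members were called at day 3 in Schwann cells, as without it. Low counts limit Scn1a, Scn4a, Scn8a, Cacna1g and Cacng5.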
